A study of Mus musculus with 27 samples.

Results

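The 6 bone morphogenetic protein (BMP) ligand genes described here are Bmp2, Bmp4, Bmp5, Bmp6, Bmp7 and Gdf2, the last of which encodes BMP9. They were chosen by name and are 6 of the 22552 genes in the RNA table of mouse liver. For DNA methylation, all loci that the deposited table assigns to Bmp6 (3 loci) and Bmp2 (2 loci) were taken, which makes 5 of its 48 loci. The livers came from male C57B/6J mice on 3 diets that differed in carbonyl iron. The standard-iron diet (SID) held 50 mg per kg and the high-iron diet (HID) held 8.3 g per kg, and both began at 6 weeks of age. The low-iron diet (LID) held 0.9 mg per kg and began at 3 weeks of age, so low iron and an earlier start cannot be told apart. There were 3 mice per diet in each assay, which gave 9 RNA libraries and 18 methylation libraries, because each of 9 animals had an HpaII and an MspI library. No label says whether RNA and DNA were taken from the same animals.

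BMP ligands are secreted dimers that bind pairs of type I and type II receptor kinases, which phosphorylate SMAD1, SMAD5 and SMAD9 and so switch on target genes. In the liver, Bmp6 and Bmp2 are known as products of sinusoidal endothelial cells that act on hepatocytes and drive Hamp, the gene of the iron hormone hepcidin. Hepcidin lowers the export of iron into plasma. Gdf2 is known as a ligand made in the liver, largely by stellate cells, that circulates and signals to endothelium through the receptor Acvrl1. Bmp5 and Bmp7 are close relatives of Bmp6, and Bmp4 is the closest relative of Bmp2.

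The promoters of the ligands are shown first because the methylation assay reads only the sequence CCGG, which both HpaII and MspI cut, HpaII only when it is unmethylated. The windows below run 5′ to 3′ from 250 bases before to 50 bases after the annotated gene start, are taken from RefSeq on GRCm38.p6, and have each CCGG in capitals. Of the 6 ligands, 4 matched a window in that table (Bmp4, Bmp5, Bmp6 and Gdf2). Bmp6 (chr13:38345466-38345765, plus strand) is shown as the ligand whose RNA differed most between the diets, and Gdf2 (chr14:33940789-33941088, plus strand) and Bmp5 (chr9:75775115-75775414, plus strand) as ligands with no called difference.
Bmp6: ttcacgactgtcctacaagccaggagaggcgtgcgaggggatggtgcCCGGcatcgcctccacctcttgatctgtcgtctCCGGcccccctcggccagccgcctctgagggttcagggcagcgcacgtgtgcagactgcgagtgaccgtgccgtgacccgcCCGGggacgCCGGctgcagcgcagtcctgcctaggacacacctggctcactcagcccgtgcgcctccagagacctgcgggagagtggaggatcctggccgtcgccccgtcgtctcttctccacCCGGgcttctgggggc
Gdf2: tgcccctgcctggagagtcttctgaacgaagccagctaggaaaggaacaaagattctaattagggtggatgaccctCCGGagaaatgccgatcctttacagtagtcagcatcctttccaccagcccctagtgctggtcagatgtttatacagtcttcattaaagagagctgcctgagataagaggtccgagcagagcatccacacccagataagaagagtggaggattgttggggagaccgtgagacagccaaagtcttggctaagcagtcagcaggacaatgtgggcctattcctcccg
Bmp5: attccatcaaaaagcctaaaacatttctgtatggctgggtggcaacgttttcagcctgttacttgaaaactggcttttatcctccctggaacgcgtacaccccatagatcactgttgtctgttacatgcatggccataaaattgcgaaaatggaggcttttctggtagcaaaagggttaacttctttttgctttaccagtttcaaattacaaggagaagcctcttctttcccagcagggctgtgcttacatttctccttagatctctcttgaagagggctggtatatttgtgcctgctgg
The Bmp6 window held 5 CCGG sites, at 203, 170, 89 and 80 bases before the start and at 35 bases after it. The Gdf2 window held 1, at 174 bases before the start, and the Bmp5 window held 0. The Bmp4 window (chr14:46390620-46390919, minus strand) held 3. Among all 32851 windows of the same length, 52.8% held at least 1 CCGG and 7.82% held 5 or more. The Bmp6 window also had the most CpG dinucleotides of these 4, with 27, against 12 in Bmp4, 6 in Gdf2 and 4 in Bmp5. The methylation loci below carry coordinates of another build, mm9, so whether any of them lies in these windows was not determined.

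RNA levels are FPKM, fragment counts corrected for transcript length and sequencing depth, of which the authors deposited 1 value per gene and diet. There is no value per library, so the levels carry no SD and no spread could be set against the differences between diets, other than through the p-values of the authors' deposited table. The table names its diets NORM, LFE and GFE, and GFE was read as HID by elimination, because the header does not explain it. Read depth is unknown. A difference is called where the adjusted p of the authors' deposited table is below 0.05. A gene counts as tested here when its mean over the diets was at least 1 FPKM and its deposited adjusted p was below 1, and 4 of the 6 ligands met the first condition (Bmp2, Bmp5, Bmp6 and Gdf2). Bmp6 met it through its HID level, since its mean over SID and LID was 0.504 FPKM. Bmp4 and Bmp7 lay below it, and their deposited p-values are given all the same.

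Bmp6, the main ligand through which liver iron is known to raise hepcidin, stood at 2.51 FPKM in HID, 0.803 in SID and 0.205 in LID. Its level was higher at each step of dietary iron, with a single value per diet behind each. HID was 3.13-fold above SID and was called (adjusted p = 7.92e-05 in the authors' deposited table). LID was 3.92-fold below SID, which was not called (adjusted p = 0.0583 in the authors' deposited table). HID was 12.3-fold above LID, which was called (adjusted p = 1.99e-06 in the authors' deposited table). Among 9473 tested genes, 75 had a ratio of HID over SID at least as high as that of Bmp6. Among 9490, 13 had a ratio of HID over LID at least as high, and among 9482, 16 had a ratio of LID over SID at least as low. Bmp6 entered these sets only through its HID level, so its ranks are a description and not support for a difference.

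Bmp2, the other endothelial ligand known to be needed for hepcidin expression, stood at 7.10 FPKM in HID, 3.73 in SID and 2.30 in LID. The order of the diets was that of Bmp6, with smaller steps from a higher level. HID was 1.90-fold above SID and was called (adjusted p = 0.00370 in the authors' deposited table). LID was 1.62-fold below SID, which was not called (adjusted p = 0.153 in the authors' deposited table). HID was 3.09-fold above LID, which was called (adjusted p = 3.89e-06 in the authors' deposited table). Here 241 of 9473 tested genes had a ratio of HID over SID at least as high, and 414 of 9482 had a ratio of LID over SID at least as low.

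**Figure D1:**
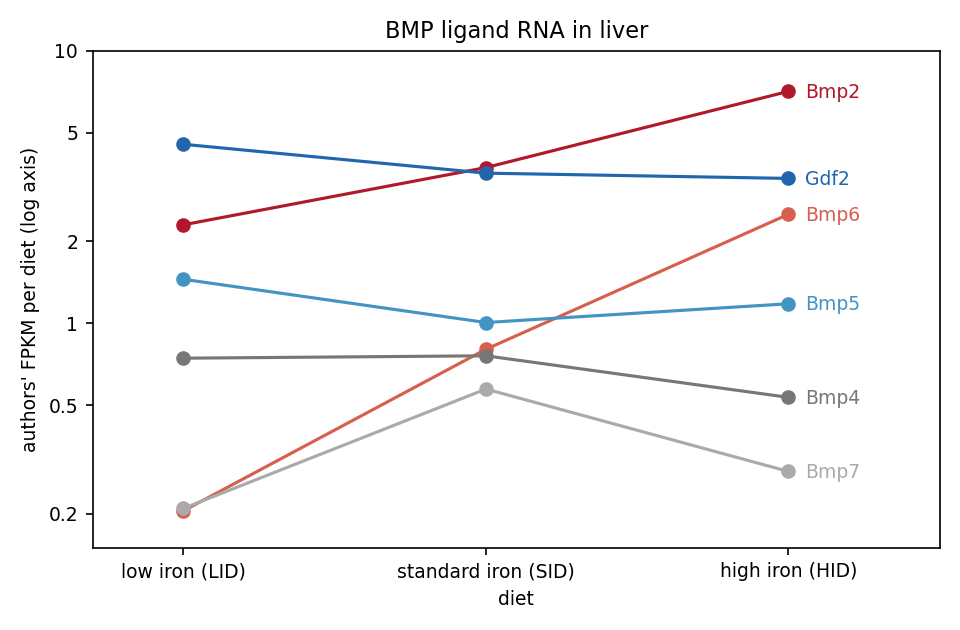
FPKM of the 6 ligands by diet on a log axis, 1 deposited value per gene and diet, with no error bars because no values per library were given. Bmp6 runs from 0.205 in LID to 2.51 in HID and Bmp2 from 2.30 to 7.10, while the lines of Gdf2, Bmp5 and Bmp4 span less than those of Bmp6 and Bmp2.

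The other 4 ligands had no called difference in any comparison. Gdf2 stood at 3.40 FPKM in HID, 3.56 in SID and 4.54 in LID, and its adjusted p in the authors' deposited table lay between 0.533 and 0.970. Bmp5 stood at 1.18 FPKM in HID, 1.01 in SID and 1.45 in LID, with adjusted p in the authors' deposited table between 0.570 and 0.878. For both, the highest level was in LID, where Bmp6 and Bmp2 had their lowest. Bmp4 stood at 0.535 FPKM in HID, 0.760 in SID and 0.745 in LID, with adjusted p in the authors' deposited table between 0.733 and 0.995. Bmp7 stood at 0.286 FPKM in HID, 0.574 in SID and 0.209 in LID. Its SID level was 2.01 times the HID level and 2.74 times the LID level, with adjusted p of 0.407 and 0.329 in the authors' deposited table. Bmp4 and Bmp7 had their highest level in SID. A p above the threshold does not show that these levels were alike.

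Counted over the 6 ligands, 2 were called higher in HID than in SID and 0 lower, Bmp2 and Bmp6. Only 4 of the 6 counted as tested, Bmp6 among them through its HID level. The shares given beside these counts cover tested genes only, so the 2 bases differ. Over all 9473 tested genes 6.66% were called in that comparison, 2.82% higher and 3.84% lower. In LID against SID 0 of 6 ligands were called, where 4.88% of 9482 tested genes were, 1.57% higher and 3.31% lower. By the unadjusted p of the authors' deposited table, below 0.05, 3 of 6 ligands were lower in LID (Bmp6 p = 0.00307, Bmp2 p = 0.0127 and Bmp7 p = 0.0452) and 0 were higher, against 17% of tested genes in either direction and 13% lower. In HID against LID 2 of 6 were called higher, again Bmp2 and Bmp6, where 3.94% of 9490 tested genes were called, 2.1% higher and 1.84% lower. The comparisons share their diets, so the calls of HID against SID and of HID against LID are not separate evidence.

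On the log2(FPKM + 1) scale, which understates differences of low genes, the median difference of tested genes was −0.07 for HID minus SID, −0.13 for LID minus SID and 0.06 for HID minus LID. Relative to that median, the difference of Bmp6 was 1.03 for HID minus SID, −0.45 for LID minus SID and 1.48 for HID minus LID. That of Bmp2 was 0.85, −0.39 and 1.23 in the same order. Relative to the median, LID minus SID was 0.42 for Bmp5, 0.41 for Gdf2, 0.12 for Bmp4 and −0.25 for Bmp7. The sign for Bmp4 was the opposite on the unadjusted scale, at −0.01. For Gdf2 HID minus SID was −0.05 before and 0.02 after the median was taken off.

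The make-up of the ligand pool differed between the diets. The summed FPKM of the 6 genes was 15.01 in HID, 10.4 in SID and 9.45 in LID. Bmp2 and Bmp6 together made 64.0% of the sum in HID, 43.5% in SID and 26.5% in LID, while the other 4 ligands summed to 5.401, 5.90 and 6.94 FPKM. In HID the order of the levels was Bmp2, Gdf2, Bmp6, Bmp5, Bmp4, Bmp7. In SID Bmp5 stood before Bmp6, and Bmp2 (3.73 FPKM) and Gdf2 (3.56) were close, as were Bmp6 (0.803) and Bmp4 (0.760). In LID Gdf2 led, Bmp2 came next and Bmp6 was last, beside Bmp7 (0.205 and 0.209 FPKM). Gdf2 was 1.35 times Bmp6 in HID, 4.43 times in SID and 22.1 times in LID. Bmp2 was 2.83, 4.64 and 11.2 times Bmp6 in the same order. Without values per library, which neighbours in these orders differ beyond the spread was not tested, and no test was made of the shares.

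The genes nearest to Bmp6 and Bmp2 in pattern were taken as those with the smallest distance in the log2 FPKM ratios of HID over SID and of LID over SID, among 9500 genes with a mean of at least 1 FPKM and no diet at 0. This rests on 3 diets, 1 value each. Nearest to Bmp6 was Atoh8, a transcription factor known as a BMP target in hepatocytes, with 23.3 FPKM in HID, 7.45 in SID and 2.08 in LID (distance 0.13). The next were Adora1, an adenosine receptor, with 7.49, 2.08 and 0.738 FPKM (distance 0.52), and Usp2, a deubiquitinase, with 2.199, 1.07 and 0.293 FPKM (distance 0.61). Gsta2 (distance 0.95) and Ces1g (distance 0.96) followed. Nearest to Bmp2 was Klf10, a transcription factor known as induced by TGF-beta, with 14.4, 7.65 and 4.86 FPKM (distance 0.05). Smad6, an inhibitory SMAD, came next with 3.90, 2.06 and 1.32 FPKM (distance 0.06), and then Aldh1b1, a mitochondrial aldehyde dehydrogenase, with 28.5, 15.1 and 9.84 FPKM (distance 0.08). Slc20a1 and Mfsd2a followed, both at a distance of 0.12.

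Genes that receive, pass on or limit a BMP signal were read from 8 lists of 80 names, of which 77 were in the table and 36 were tested. Of the 36, 8 were called higher and 1 lower in HID than in SID. In LID against SID 1 was higher and 10 were lower, and in HID against LID 11 were higher and 1 lower. The genes called higher in HID include Id4 in both comparisons, and Id4 counted as tested only through its HID level. Among all tested genes, the shares called higher and lower were 2.82% and 3.84% in HID against SID. They were 1.57% and 3.31% in LID against SID, and 2.1% and 1.84% in HID against LID. The counts by list below are read beside these shares. The median log2(FPKM + 1) difference of the 36 was 0.14, −0.27 and 0.14 in the same order. All 3 comparisons rest on the same 3 sets of libraries.

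Receptor and coreceptor RNA gave 0 calls in every comparison. The 3 tested receptors were the type I receptors Bmpr1a and Acvr1, through which Bmp6 and Bmp2 are known to signal in hepatocytes, and the type II receptor Acvr2a. Bmpr1a stood at 6.23 FPKM in HID, 5.76 in SID and 5.48 in LID, and Acvr1 at 3.38, 3.42 and 3.04. Bmpr2, a type II receptor, and Acvrl1, the receptor of Gdf2 on endothelium, lay below 1 FPKM in all diets. The 5 tested coreceptor and sensor genes were Hfe2, Neo1, Eng, Hfe and Tmprss6. Levels of Hfe2, the gene of the BMP coreceptor hemojuvelin, were 39.1, 31.5 and 27.4 FPKM in HID, SID and LID. Tmprss6, the protease known to cleave hemojuvelin, stood at 72.6, 103 and 68.6 FPKM. The median log2(FPKM + 1) difference of coreceptors was −0.13 for HID minus SID and −0.25 for LID minus SID.

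Among the 4 SMADs that carry the signal, Smad9 alone was called. It rose from 1.66 FPKM in SID to 5.78 in HID (adjusted p = 3.45e-12 in the authors' deposited table) and fell to 0.840 in LID (adjusted p = 0.0236 in the authors' deposited table). Smad1, Smad5 and Smad4 had no call, with Smad4, the SMAD shared with TGF-beta signalling, at 4.84, 4.995 and 4.51 FPKM in HID, SID and LID. Both tested inhibitory SMADs, which feed back on the receptors, rose in HID. Smad7 went from 1.66 to 6.93 FPKM, with an adjusted p listed as 0 in the authors' deposited table, and Smad6 from 2.06 to 3.90 FPKM (adjusted p = 0.0131 in the authors' deposited table). In LID Smad7 stood at 0.841 FPKM and Smad6 at 1.32, neither of which was called against SID.

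All 7 listed target genes were tested, Id4 among them only through its HID level. Its SID and LID levels, given below, were under 1 FPKM. The calls of Id4 in HID are included in the counts that follow and are not support for a rise. In HID against SID 4 rose and 0 fell, with a median log2(FPKM + 1) difference of 1.52, and in LID against SID 0 rose and 6 fell, with a median of −1.49. All 7 were higher in HID than in LID. Of all tested genes, 2.82% rose in HID against SID, 3.31% fell in LID against SID and 2.1% were higher in HID than in LID. Hamp stood at 6028 FPKM in HID, which was not called against 3200 in SID (adjusted p = 0.0685 in the authors' deposited table), and at 15.8 in LID. That LID level was 202-fold below SID. Id1, a helix-loop-helix repressor of differentiation, stood at 73.6 FPKM in HID, 8.54 in SID and 3.65 in LID, and its relative Id3 at 81.0, 52.0 and 8.90. The ligands with calls and these targets thus had their levels in the order HID, SID, LID. Id4 had its call in HID, at 7.14 FPKM against 0.460 in SID, and stood at 0.394 in LID.

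Secreted antagonists and proteases gave few calls. Of 5 tested antagonists, 1 was called higher in HID than in SID and 1 higher in LID than in SID. In HID against LID 1 was called lower. The call in HID against SID was Fst, which encodes the activin and BMP binding protein follistatin. Fst rose from 2.12 to 3.85 FPKM in HID (adjusted p = 0.0435 in the authors' deposited table). The antagonist calls that involve LID are not named here. Of 4 tested proteases that cut BMP precursors or their antagonists, Pcsk6 fell from 12.6 to 7.35 FPKM in LID (adjusted p = 0.00606 in the authors' deposited table). Furin, a convertase of BMP precursors, stood at 27.9, 30.04 and 23.9 FPKM in HID, SID and LID and was not called.

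Of 6 tested other ligands of the TGF-beta family, Inhbc and Inhbe, which encode the activin C and activin E subunits made in hepatocytes, had calls. Inhbc fell from 25.5 FPKM in SID to 9.61 in HID (adjusted p = 1.19e-08 in the authors' deposited table) and to 10.7 in LID (adjusted p = 3.95e-07 in the authors' deposited table). Inhbe was at 10.3 FPKM in HID and at 11.4 in SID and fell to 4.90 in LID (adjusted p = 3.54e-05 in the authors' deposited table). Tgfb1 stood at 2.15, 1.73 and 2.70 FPKM in HID, SID and LID and was not called.

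**Figure D2:**
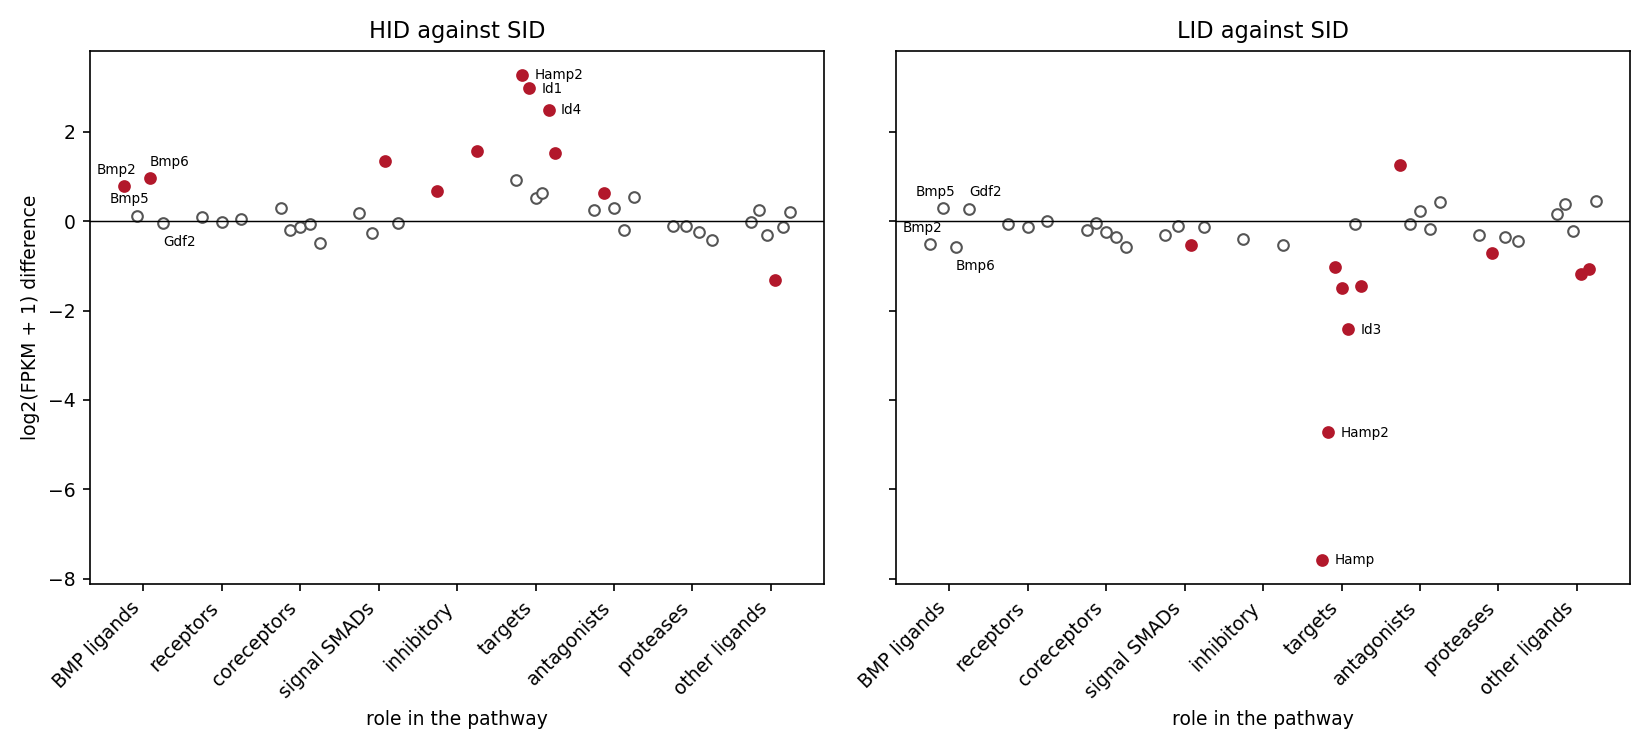
Differences in log2(FPKM + 1) of HID minus SID and LID minus SID for the tested BMP ligands and the tested members of each pathway list, 1 point per gene, filled where called. In HID minus SID the filled ligands are Bmp2 (0.78) and Bmp6 (0.96) and no ligand is filled in LID minus SID, where Hamp is the lowest point.

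The livers were measured in bulk, so fewer cells of a type and less RNA per cell cannot be told apart. All 17 listed markers of sinusoidal endothelial cells were tested, and none was at 0. Their summed level was 135 FPKM in HID, 129.5 in SID and 114 in LID. In HID against SID 1 endothelial marker rose (Lyve1, 2.34 to 4.23 FPKM) and 0 fell, and in LID against SID 2 rose (Lyve1 and Stab2) and 1 fell (Ehd3, 9.99 to 6.14 FPKM). In HID against LID 0 were higher and 1 was lower (Stab2). The shares of all tested genes that rose and fell were 2.82% and 3.84% in HID against SID. They were 1.57% and 3.31% in LID against SID, and 2.1% and 1.84% in HID against LID. The sum was carried by Clec4g (56.5, 53.0 and 39.2 FPKM in HID, SID and LID). The median log2(FPKM + 1) difference of the 17 was 0.03 for HID minus SID, 0.12 for LID minus SID and −0.11 for HID minus LID, against −0.07, −0.13 and 0.06 over all tested genes. By level, 10 of 17 were higher in LID than in SID and 11 of 17 higher in LID than in HID. The part of endothelial cell number in the ligand levels was not tested.

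Markers of other cells also moved with the diets. Stellate cell markers (11 tested of 14, none at 0 in all diets) summed to 154 FPKM in HID, 128 in SID and 164 in LID, with Rgs5 the only tested gene called (2.03 to 9.32 FPKM from SID to LID). Hhip, below the FPKM minimum, stood at 0.398 FPKM in LID and 0.132 in SID (adjusted p = 0.00434 in the authors' deposited table). Kupffer cell markers (11 tested of 12 names) summed to 255, 180 and 288 FPKM, with 2 rising in HID and 6 rising in LID against SID. Of all tested genes, 2.82% rose in HID and 1.57% in LID against SID. Vsig4, a complement receptor of Kupffer cells, rose from 11.4 to 22.7 FPKM in HID and to 23.2 in LID. Hepatocyte markers summed to 25515, 25734 and 19852 FPKM, but these sums do not cover the same genes, since Alb was listed at 0 in all 3 diets and Serpina1a at 2010 FPKM in HID and at 0 in SID and LID, both with the status HIDATA in the deposited table. Over the 8 markers without that status the sums were 23505 FPKM in HID, 25734 in SID and 19852 in LID. Of 8 tested hepatocyte markers 1 fell in HID (G6pc, 205 to 108 FPKM) and 0 were called in LID against SID. Over all tested genes, 3.84% fell in HID against SID and 4.88% were called in either direction in LID against SID. Bile duct markers summed to 5.32, 3.44 and 4.36 FPKM, with 1 of 2 tested rising in HID (Krt7, 0.596 to 1.75 FPKM). Krt7 met the FPKM minimum only with its HID level counted. Red cell precursor markers summed to 756, 739 and 1054 FPKM. Alas2, the erythroid enzyme of haem synthesis, fell in HID and in LID against SID, and Hbb-b1, a beta globin gene, rose in LID. The part of these cells in the ligand levels was not tested.

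The methylation table gives a score between 0 and 100 per locus and animal, and no header states the direction of the scale, so more methylation could mean a higher or a lower score. The sources used here give neither the formula that joined the HpaII and MspI reads nor the number of reads behind a score, so the depth is unknown. The library titles speak of bisulfite sequencing, whereas the protocol describes the enzyme pair. All 48 loci had a deposited p below 0.05 (highest 0.0494), so the table holds loci that differed between the diets. The limma and permutation p-values below were computed on the scores of these loci alone. That choice favours calls, so the p-values are not separate evidence of a difference. A call at Bmp6 or Bmp2 is read against the calls at the other loci.

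The labels also give each animal a code of a letter and a digit. All 3 SID animals and HID animals 1 and 2 have the letter A, while HID animal 3 and all 3 LID animals have the letter M. What the letters stand for is not stated. HID animal 3 lay above both other HID animals at 5 of 5 Bmp6 and Bmp2 loci. Over all 48 loci it was off the mean of the A-coded HID animals in the direction of LID minus SID at 42, with Pearson's r of 0.85 across loci between the size of that offset and LID minus SID. The loci share animals and are not independent, so r is a description. The median absolute difference over the 48 loci was 25.1 for LID minus SID, 11.3 for HID animal 3 minus the A-coded HID animals and 3.66 for the A-coded HID animals minus SID. Diet and letter therefore cannot be told apart for LID against SID, and values by letter are given with the comparisons.

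At Bmp6 1 locus lay in exon 1 and 2 in intron 1, by the authors' annotation, and each locus of Bmp6 and Bmp2 spanned 4 bases. The exon 1 locus (mm9 chr13:38438105-38438108) had scores of 20.3, 61.7 and 54.8 in the 3 LID animals, 2.62, 2.14 and 7.14 in the SID animals and 4.62, 7.31 and 34.7 in the HID animals. The LID animals did not overlap with the SID animals, and HID animals 1 and 2 lay near the SID animals while HID animal 3 lay among the LID animals. The means were 45.6 ± 22.2 in LID, 3.96 ± 2.76 in SID and 15.5 ± 16.6 in HID (SD, n = 3 each).

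The first intron 1 locus of Bmp6 (chr13:38444003-38444006) lay 5898 bases beyond the exon 1 locus. Its scores were 33.9, 53.5 and 58.1 in LID, 20.97, 26.1 and 16.8 in SID and 22.9, 22.7 and 35.6 in HID. LID and SID again did not overlap, and HID animal 3 lay above the lowest LID animal. The second intron 1 locus (chr13:38445706-38445709), 7601 bases beyond the exon 1 locus, had scores of 31.9, 39.3 and 50.3 in LID, 18.7, 28.5 and 31.2 in SID and 20.3, 18.1 and 24.0 in HID. Here no HID or SID animal reached the lowest LID animal, but the gap between the highest SID and the lowest LID animal was the smallest of the 5 loci. The SID scores of the intron loci (means 21.3 ± 4.67 and 26.1 ± 6.59, SD, n = 3) were above that of the exon 1 locus.

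Both Bmp2 loci lay in exon 1, 357 bases apart. The first (chr2:133378209-133378212) had scores of 27.1, 52.4 and 42.2 in LID, 13.99, 21.2 and 7.31 in SID and 15.1, 11.4 and 19.2 in HID. The LID animals lay above all others. The second (chr2:133378566-133378569) had scores of 24.6, 50.9 and 46.6 in LID, 5.65, 3.82 and 11.5 in SID and 5.14, 2.25 and 23.6 in HID. HID animal 3 lay above all SID animals at this locus and just under the lowest LID animal. LID animal 1 had the lowest LID score at 5 of 5 loci.

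**Figure D3:**
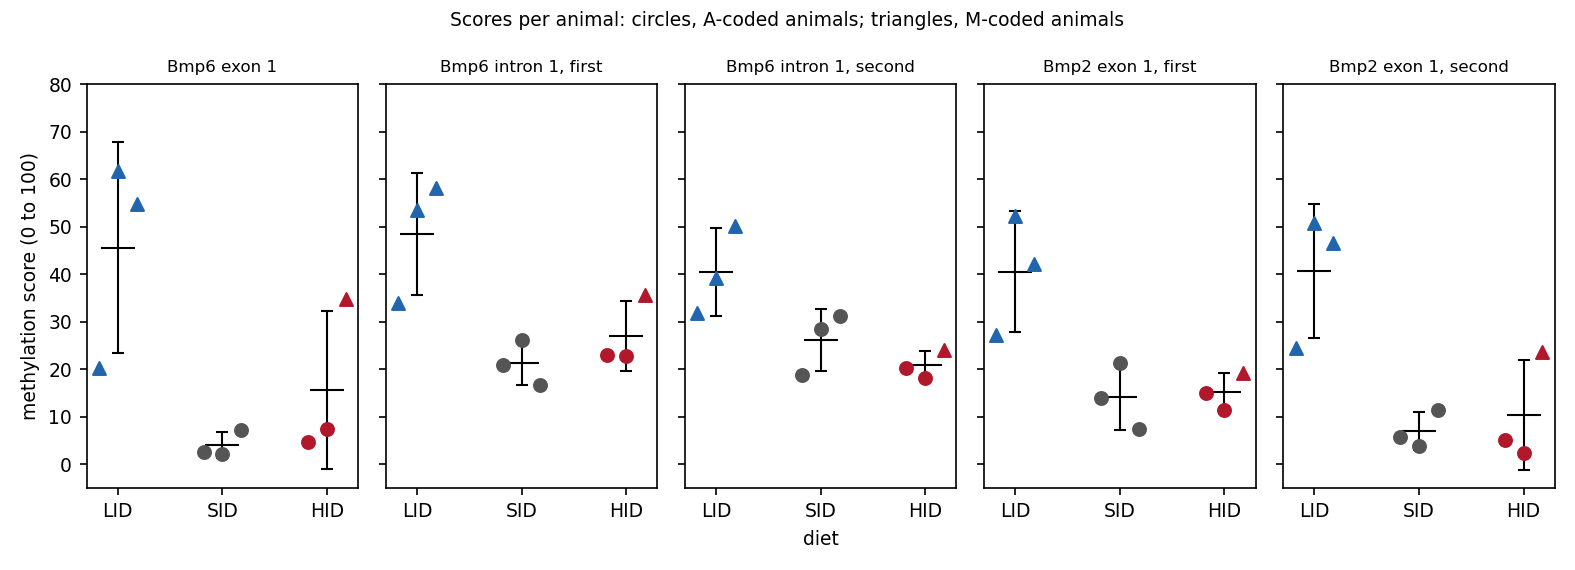
Methylation scores (0 to 100) per animal at the 3 Bmp6 and 2 Bmp2 loci by diet, with the mean and SD of 3 animals, circles for A-coded and triangles for M-coded animals. The LID animals lie above the SID animals in every panel, and the M-coded HID animal lies above the other HID animals in every panel.

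In LID against SID, limma over all 48 loci and 9 animals called 5 of 5 loci higher in LID, where it called 91.7% of all loci, 60.4% higher and 31.2% lower. The score differences were 41.7 at the Bmp6 exon 1 locus, 27.2 and 14.4 at the intron 1 loci, and 26.4 and 33.7 at the Bmp2 loci. The limma adjusted p was 0.00503 at 4 loci and 0.0422 at the second Bmp6 intron 1 locus. There the call was lost without SID animal 1 or 2, LID animal 2 or 3, or HID animal 1 or 2 (limma adjusted p between 0.0543 and 0.168). An exact two-sided permutation test gave p = 0.1 at each locus, the smallest that 3 animals against 3 allow. Of the 30 loci with a mean SID score below 50, all but 1 (29) were higher in LID, and of the 18 loci at 50 or above all 18 were lower. The 5 loci of Bmp6 and Bmp2 were among those below 50, so their direction was that of most such loci in the table. With the letter of the animal code as a term, added after the scores had been seen, limma called 0 of 5 loci and 0% of the 48 in LID against SID.

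In HID against LID, limma called 5 of 5 loci lower in HID, where it called 68.8% of all loci, 18.8% higher and 50% lower. The score differences lay between −30.4 and −19.7, and the limma adjusted p between 0.0228 and 0.0235. The diets overlapped at the Bmp6 exon 1 locus and the first intron 1 locus (exact permutation p = 0.2) and not at the other 3 (exact permutation p = 0.1). The call was lost at all 5 loci when LID animal 2, LID animal 3, HID animal 1 or HID animal 2 was left out, with limma adjusted p between 0.0639 and 0.0985. Without HID animal 3 all 5 loci were called lower in HID, with differences between −39.7 and −21.3 and limma adjusted p between 0.00292 and 0.0138. With the letter as a term, limma called 0 of 5 loci lower in HID than in LID and 0% of the 48, with adjusted p between 0.431 and 0.499.

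In HID against SID, limma called 0 of 5 loci and 0% of all 48, and at an unadjusted p below 0.05 it gave 0 of 5 and 3 of 48. The difference at the Bmp6 exon 1 locus was 11.6 with a 95% interval of −10.3 to 33.5, and at the second Bmp2 locus it was 3.34 with an interval of −13.4 to 20.05. At the second Bmp6 intron 1 locus it was −5.32, with an interval of −18.7 to 8.09. The intervals hold both a rise and a fall of some size. A test of a link between the RNA levels and the scores was not made.

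Within a letter, the differences were as follows. Among A-coded animals HID minus SID was 2.001 at the Bmp6 exon 1 locus, 1.55 and −6.93 at the intron 1 loci, and −0.94 and −3.29 at the Bmp2 loci (n = 2 and n = 3). Among M-coded animals LID minus HID was 10.9, 12.9, 16.5, 21.3 and 17.1 in the same order (n = 3 and n = 1), so all 5 loci were higher in LID by a smaller amount than in LID minus SID at 4 of them. Within HID, the M-coded animal minus the A-coded animals was 28.7, 12.7, 4.83, 5.98 and 19.9. With the letter as a term, LID minus SID was 12.9, 14.5, 9.52, 20.4 and 13.8, with a limma adjusted p of 0.718 at each. In HID against SID that fit also called 0 of 5. It rests on 1 M-coded HID animal.

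**Figure D4:**
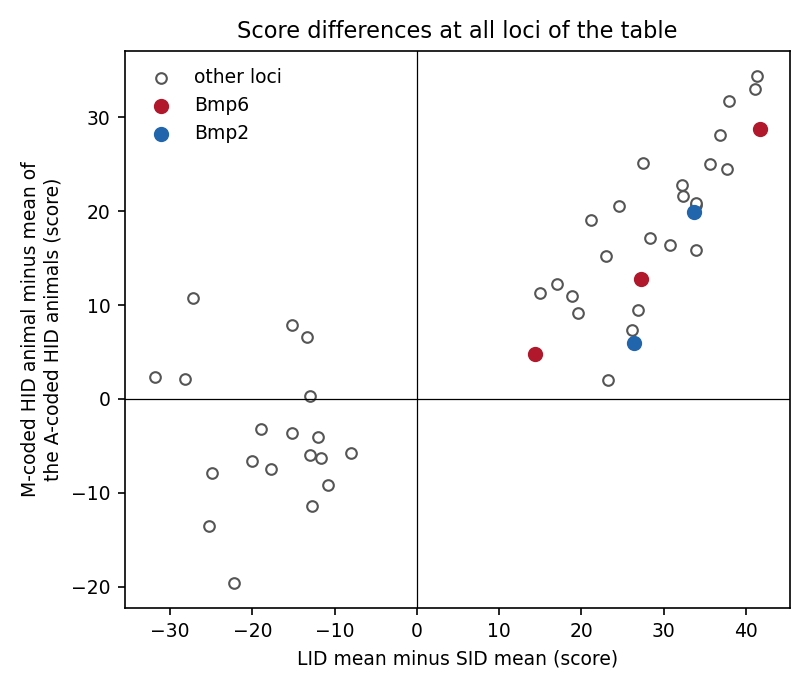
Each of the 48 loci by its LID mean minus SID mean (horizontal, score) and by the M-coded HID animal minus the mean of the A-coded HID animals (vertical, score), with Bmp6 and Bmp2 loci filled. The 5 filled points lie in the upper right, with LID minus SID from 14.4 to 41.7 and the HID offset from 4.83 to 28.7.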

How the data were processed

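RNA libraries were aligned and summarised with TopHat and Cufflinks 2.2.1 on the genome build mm9, as the submitters' processing notes list them. The authors' deposited FPKM are 1 value per gene and diet, combined by the authors over 3 libraries, and their unit was inferred from the tool named and from the range of the values. The authors also deposited a p-value and an adjusted p-value per gene and comparison. These adjusted values equal 1 Benjamini-Hochberg adjustment over all 3 comparisons (34481 tests, largest gap 2.69e-06). The sources used here do not name the test behind them, and 10986 genes carried the status NOTEST.

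The deposited methylation score per locus and animal came from HpaII and MspI libraries, per the labels' protocols, while its formula and coverage are not stated there. The labels describe 3 male mice per group, which were taken as the replicates.

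FPKM ratios were computed with no pseudocount, and log2 differences with a pseudocount of 1. A planned limma fit on RNA needed values per library. Methylation scores were compared with limma 3.58.1 in R 4.3.3 over 9 animals and 48 loci, with Benjamini-Hochberg adjustment within a comparison. The limma step was also run on simulated loci with independent normal scores and no effect of the letter. The real loci were preselected and share animal offsets, so that run does not bear on the calls reported here. The members, gene lists and tests were chosen with earlier results of these data known. The text names all ligands and loci, up to 4 called members of each list and comparison by smallest deposited p, and the 5 genes nearest to Bmp6 and Bmp2. Further list members were picked with their values in view. Some genes that this rule names are not reported here, though the counts include them. Some list names are older and newer symbols of 1 gene. Alternatives were other filters, pseudocounts, scalings, adjustments and fold limits for RNA, and a logit scale, a trend, a replicate block and leaving out each animal for methylation. A term for the letter of the animal code was added after the data were seen.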

Additional observations from a re-analysis of the deposited data

How the results depend on the processing

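Of the counts of called ligands, pathway genes and loci, 60 of the alternative values were within 1.5 times the reported count and 9 were not. With a filter at a mean of 2 FPKM, Bmp6 left the tested genes and 1 ligand was called in HID against SID and 1 in HID against LID. With a 2-fold limit 1 ligand was called in HID against SID, because Bmp2 was 1.90-fold. With the letter of the animal code as a term, 0 loci were called in LID against SID and 0 in HID against LID. Leaving out each animal gave 0 to 5 called loci in HID against LID, 4 to 5 in LID against SID and 0 to 0 in HID against SID. The animals share a replicate number only: the deviations of same-numbered animals correlated between −0.50 and 0.76 over 48 loci. The replicate block gave 0, 5 and 5 called loci in HID against SID, LID against SID and HID against LID and changed no call. A logit scale gave 0, 4 and 5, and a trend in limma 0, 4 and 4. Among single loci, 137 values kept both their sign and their side of the threshold, and 38 kept their sign but lost their call. The other 5 changed sign, with no call before or after. For single ligands only the size of the difference was recomputed, under another pseudocount and scaling, with the deposited adjusted p kept. There 34 values kept their sign, whatever the change in size. With a pseudocount of 0.1, Bmp6 went from 1.54 to 3.10 in HID against LID and from −0.58 to −1.57 in LID against SID. Uncalled Gdf2 in HID against SID (0.02) and Bmp4 in LID against SID (0.06) changed sign under the scaling. The causes were not tested. Levels below 1 FPKM, as for Bmp6 in SID and LID, are the least certain, and the read depth that would limit them is unknown.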

Other observations

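Of the 77 pathway genes with RNA values, 36 were tested above. Among the others, whose mean was below 1 FPKM, 2 were called in HID against SID in the authors' deposited table. Both were picked with their values in view. The share called among all genes below that minimum was not computed, so the count of 2 cannot be set against it. Bambi, which encodes a membrane pseudoreceptor known to dampen TGF-beta family signals, stood at 1.64 FPKM in HID, 0.726 in SID and 0.601 in LID (adjusted p = 0.00176 for HID against SID in the authors' deposited table). Tgfb3, a ligand of the TGF-beta receptors, was at 0.716 FPKM in HID against 0.254 in SID (adjusted p = 0.0197 in the authors' deposited table).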
